A study of Homo sapiens with 16 samples.

Results

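The regions described here are stretches of the genome with a peak in all 4 lists named K512R or K512R-AS and in neither of the 2 lists named WT-AS. Joining the peaks of 8 lists wherever they shared 1 bp or more of a strand gave 36802 regions, of which 447 met this rule, 1.21% of all regions. They were 3.38% of the 13228 regions with a peak in all 4 K512R-named lists. The members were chosen by the presence or absence of a peak in these 6 lists, so their absence from WT-AS is a description and not a test. All 447 are, by that rule, among the regions of both K512R-AS lists that WT-AS lacked, 6.30% of 17298. The lists WT-1 and WT-2 took no part in the choice.

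The lists came from RNA immunoprecipitation and sequencing (RIP-seq) with an anti-Myc antibody in H1299, an established human lung carcinoma line that stably expressed Myc-tagged PABPC1. The protein was wild type (WT) or carried K512R, in which a lysine is replaced by arginine, and cells were untreated or given 500 µM sodium arsenite (AS). Whether the cells also kept their own untagged PABPC1, and whether a line was 1 clone, is not stated in the labels. Of 16 samples, 8 had a list, and no list was used for the other 8, all titled K512R.

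For 6 of the 8 lists the name and the sample record disagree, and which is right was not settled. The lists WT-1 and WT-2 are recorded as immunoprecipitates of untreated WT cells, which fits their names. The lists named WT-AS are input RNA of WT cells without arsenite in the record, those named K512R as immunoprecipitates of arsenite-treated WT cells, and those named K512R-AS as the input of arsenite-treated WT cells. By the names, the 447 regions kept a peak in cells with K512R, with and without arsenite, and had none in arsenite-treated cells with WT. By the record, they had a peak in both the immunoprecipitate and the input of arsenite-treated WT cells and none in the input of untreated WT cells. The lists are called by their names below, and these names do not settle the condition. Nothing in the labels says that the 2 lists of a pair came from separate cultures.

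PABPC1 is the main cytoplasmic poly(A)-binding protein. It coats the poly(A) tails of mRNAs, contacts the translation initiation machinery, and takes part in mRNA stability and decay. Arsenite is an oxidative stressor that stalls initiation of translation, and the stalled mRNAs gather with PABPC1 in stress granules. SUMO is a small protein that is attached to lysines of its targets, and arginine in place of a lysine cannot take it up. By its title, the study concerns SUMO on PABPC1 and U-rich mRNAs held in stress granules. The regions could not be assigned to genes here, because the gene table used is for another genome build than the lists, so they are given by hg19 position, counted from 1, with their strand. For the same reason their U content and their place in an mRNA were not analysed here, and no marker of H1299 could be checked.

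Depth is unknown, since the lists hold no read counts. The lists held 19953 to 25111 peaks, and the share of regions in common between the lists of a pair (Jaccard index) was 0.729 to 0.743. Each peak has a score of the authors whose unit is not stated. Many peaks are tied at 3100, and lists are compared here by the rank of a score within its list, as a percentile in which 100 is best. The score itself is printed to show the data, and minimums of 30 and 100 were applied to it in all lists alike. Each list was ranked over all its peaks, and a region takes the percentile of its best peak. A comparison of 2 lists with 2 has too few orders for an exact test to pass 0.05, and regions are not replicates, so the counts that follow carry no p-value. Their 95% exact binomial intervals cover counting error only.

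Most of the members were regions that the untreated WT lists also held. A peak was present in both WT lists in 343 of 447 members (76.7%, interval 72.5% to 80.6%), in 1 of them in 80 (17.9%, 14.5% to 21.8%), and in neither in 24 (5.37%, 3.47% to 7.88%). Over all regions of the 4 K512R-named lists the background was 90.8% in both WT lists and 2.51% in neither. By the names, most members thus stood in WT without arsenite and in K512R under both conditions, and were missing with WT and arsenite. The 24 members absent from every WT-named list are the only ones found in K512R-named lists alone. Of the 80 members with 1 WT peak, 41 had it in WT-1 and 39 in WT-2, so neither list supplied them alone.

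**Figure D1:**
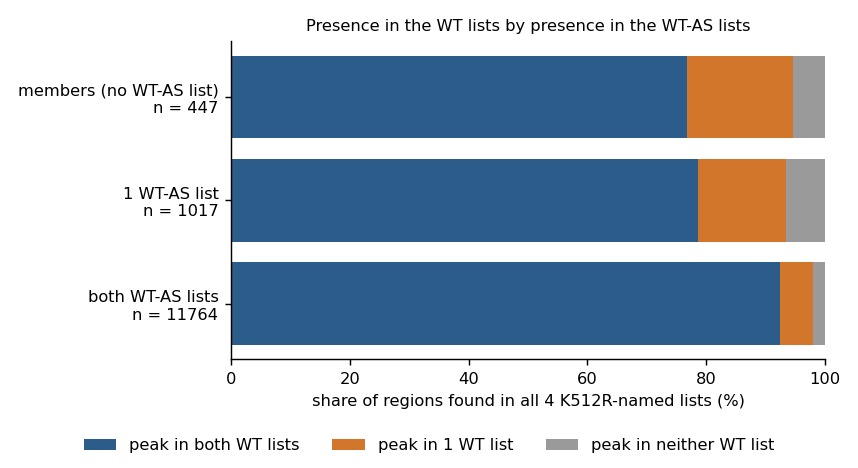
Bars show the share (%) of regions with a peak in both, 1 or neither of the WT lists, among regions found in all 4 K512R-named lists, by how many WT-AS lists held them. The blue part is 76.7% of the members, 78.7% of regions in 1 WT-AS list and 92.4% of regions in both WT-AS lists.

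Regions that missed the rule by 1 WT-AS list gave nearly the same split. A further 1017 regions had a peak in all 4 K512R-named lists and in 1 WT-AS list, 461 of them in WT-AS-1 and 556 in WT-AS-2. Both WT lists held 78.7% of these (interval 76.0% to 81.1%) and neither held 6.49% (5.05% to 8.18%), close to the shares in the members. Their median score percentile in the 1 WT-AS list that held them was 19.4 in WT-AS-1 and 20.1 in WT-AS-2. Most of the regions just outside the rule were therefore weak peaks of that list. Among regions in both WT-AS lists, 92.4% were in both WT lists and 2.06% in neither.

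The number of members depended strongly on single lists. Leaving out a list removes a condition of the rule, so the number can only rise, and only the size of the rise is informative. It rose to 908 without WT-AS-1, 1003 without WT-AS-2, 873 without K512R-AS-1 and 765 without K512R-AS-2, and to 579 without K512R-1 and 552 without K512R-2. In 426 regions K512R-AS-1 alone stood between the region and the rule, in 318 K512R-AS-2, in 132 K512R-1 and in 105 K512R-2. The lists named AS thus decided membership more often than the other lists of the rule.

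Absence from 1 pair alone was not limited to WT-AS. Of the regions with a peak in both lists of 3 pairs and in neither of the remaining pair, 343 lacked WT-AS, 391 lacked K512R-AS, 242 lacked WT and 121 lacked K512R. The mean number of peaks per list was 20734.5 ± 602 in WT-AS, 20462 ± 720 in K512R-AS, 22031 ± 73.5 in WT and 24647 ± 656 in K512R (SD, n = 2 each). The pairs with fewer peaks were missing more often, although WT-AS and K512R-AS differed in length by less than the SD of either, and the part of list length in these counts was not tested. The rule with the 2 proteins exchanged, a peak in all 4 WT-named lists and in neither K512R-AS list, was met by 479 of 12803 regions (3.74%), beside the 447 of 13228 (3.38%) for the members. Of those 479, 391 (81.6%) had a peak in both K512R lists. The 2 directions were thus about as frequent.

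When only the 19953 top peaks of each list were used, so that all lists matched K512R-AS-1 in length, 390 regions met the rule, 3.29% of those in all 4 K512R-named lists. With scores of 30 or more 395 of 10895 met it (3.63%), and with 100 or more 318 of 7594 (4.19%). The count thus fell with a stricter minimum while the share rose. At these minimums a WT-AS peak with a lower score counts as absent. Of the regions in both WT lists, 19.1% had no peak in either WT-AS list, and the 343 members are a small part of those 3544. The matching share for K512R was higher. Of the 20905 regions in both K512R lists, 25.3% (5295) had no peak in either K512R-AS list. Of the regions in both K512R lists, 8.75% had none in WT, and the 24 members are among those 1829.

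The members ranked low in the lists that held them, and lowest in the K512R-AS lists. Their median percentile was 38.0 in K512R-1 and 42.2 in K512R-2, and 21.3 in K512R-AS-1 and 23.2 in K512R-AS-2. Over all regions of the 4 K512R-named lists it was 66.7, 68.3, 61.5 and 63.7. In the WT lists, which the rule did not use, the members with a peak had a median percentile of 38.9 in WT-1 (n = 384) and 39.6 in WT-2 (n = 382), near the values in K512R-1 and K512R-2. Within the 343 members in both WT lists, the median difference of K512R from WT was 2.51 percentile points, and 195 (56.9%) ranked higher in K512R. Among regions in both WT-AS and both WT lists the difference was 0.584 points and 65.8% ranked higher in K512R. These ranks cover only members with a peak in WT, and leave out the 80 and 24 members that 1 or both WT lists lacked, and the K512R ranks come from lists the rule used.

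From K512R to K512R-AS the members ranked lower by a median of 16.5 percentile points, with 337 of 447 (75.4%) lower. The regions in 1 WT-AS list were lower by 12.2 points and those in both WT-AS lists by 1.10 points, of which 59.3% were lower. These values come from lists the rule used and are given as a description. In K512R-AS-1 43.0% of the members scored under 30, and in K512R-AS-2 36.2%, beside 8.36% and 6.24% of all regions in the 4 lists. The lowest member scores were 13.14 and 13.10 in these lists, close to the lowest score in any list. Many members thus stood near the lower end of the K512R-AS lists.

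The reversed set shared the weak peaks of its AS-named pair but not the ranks in the lists not named AS. Regions in all 4 WT-named lists and in neither K512R-AS list had a median percentile of 21.7 and 24.1 in the WT-AS lists, 43.1 and 44.1 in the WT lists, and 55.1 and 55.8 in the K512R lists that held them. The medians of the reversed set were thus higher in K512R (n = 423 and 429) than in WT (n = 479 in both lists). The K512R medians leave out regions without a K512R peak, and no difference over the same regions is given here. The members that had peaks in the WT lists ranked there near their values in K512R.

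**Figure D2:**
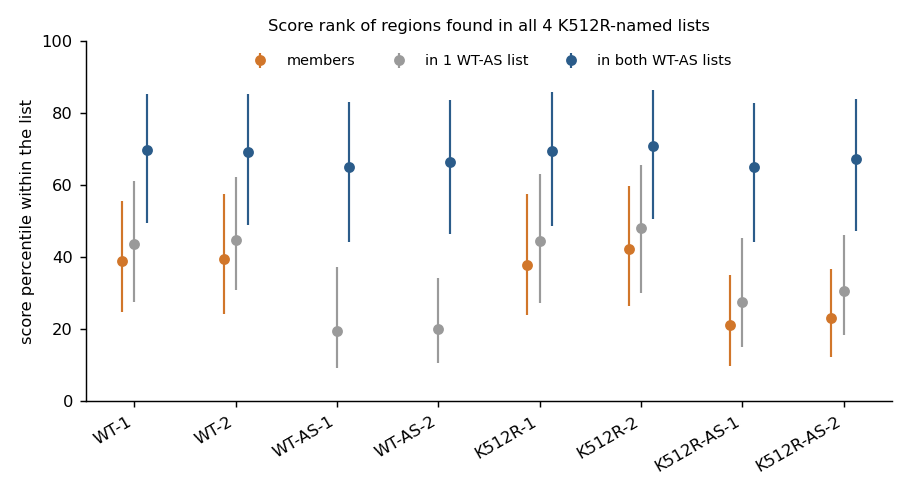
Points are median score percentiles within each list and lines span the quartiles, for members, regions in 1 WT-AS list and regions in both WT-AS lists, all found in all 4 K512R-named lists. Members lie near 40 in the WT and K512R lists and near 22 in the K512R-AS lists, and have no point in WT-AS by the rule.

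The share of members fell steeply with score. Regions of the 4 K512R-named lists were divided by the lowest of their 4 percentiles. In the lowest class, percentiles of 20 or less, 307 of 2665 regions were members (11.5%). From there the share was 3.31% (89 members), 0.98% (27), 0.56% (15) and 0.368% (9) in the classes up to 40, 60, 80 and 100. Only 33 members (7.38%) scored above the list median in all 4 lists, beside 49.0% of all regions in those lists.

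In the classes up to 40, the members were in both WT lists about as often as other regions of the same class. In the classes above 40 they were there less often than regions in both WT-AS lists. In the lowest class, both WT lists held 74.3% of the members, 74.7% of the regions in 1 WT-AS list and 74.3% of the regions in both WT-AS lists. In the next class the shares were 87.6%, 85.5% and 89.0%. In the classes above, the members were at 81.5% (22 of 27) and 80.0% (12 of 15) and the regions in 1 WT-AS list at 80.6% and 82.9%, while regions in both WT-AS lists reached 96.4% and 98.3%. In the highest class 3 of 9 members (33.3%) were in both WT lists, beside 98.3% of 2395 regions in both WT-AS lists and 79.5% of those in 1. These upper classes hold few members, 15 and 9 in the last pair. In all classes but the highest the members' share was thus near that of the regions in 1 WT-AS list, and the lower share in the highest class rests on 9 members.

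**Figure D3:**
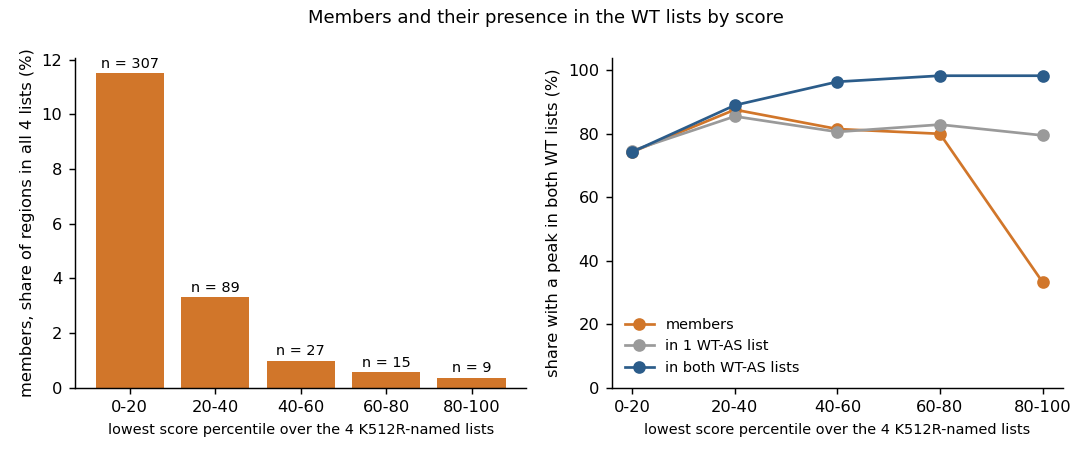
The left bars give members as a share (%) of regions found in all 4 K512R-named lists, by the lowest score percentile over these lists, and the right lines give the share (%) with a peak in both WT lists. Members fall from 11.5% to 0.368%, and the lines meet at about 74% in the lowest class. Above 40 the line of regions in both WT-AS lists lies higher, and all lines part in the highest class, where there are 9 members.

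Among the members in both WT lists, those with the best lowest percentile were strong peaks with no listed WT-AS peak over them. The region at chr7:27195786-27196296 (minus strand, 511 bp) scored 2198 and 3100 in WT-1 and WT-2, 1576 and 3100 in K512R-1 and K512R-2, and 1640 and 3147 in K512R-AS-1 and K512R-AS-2. It was thus at or above the tied score of 3100 in 1 list of every pair but WT-AS. The region at chr19:11039690-11040916 (plus strand, 1227 bp) scored 3100 in both WT lists, 2621 and 3100 in K512R, and 1245 and 1573 in K512R-AS. The region at chr19:4365479-4365622 (minus strand, 144 bp) scored 3181 and 3100 in WT, 2781 and 3100 in K512R, and 904 and 1532 in K512R-AS. Both of these had lower percentiles in the K512R-AS lists (81.5 and 83.0, and 77.9 and 82.7) than in any other list that held them, where they were at 90.7 or more. On the same strand, 875 bp from the region at chr19:4365479, another region scored 924.7 in WT-AS-1 and had no peak in WT-AS-2.

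Others of this class were higher in K512R-AS. The region at chr7:25164615-25164868 (minus strand, 254 bp) scored 552 and 1606 in WT, 1182 and 1329 in K512R, and 3100 in both K512R-AS lists. The region at chr16:53737467-53737742 (minus strand, 276 bp) scored 918 and 1876 in WT, 680 and 1363 in K512R, and 2855 and 3100 in K512R-AS. In the region at chr20:48561919-48562025 (plus strand, 107 bp) the scores were 1321 and 763 in WT, 637 and 804 in K512R, and 1793 and 1830 in K512R-AS. In these 3 regions the percentile was higher in both K512R-AS lists than in all 4 lists not named AS, while neither WT-AS list had a peak there. For the last it was 85.2 and 84.4 in K512R-AS and at most 83.8 in the lists not named AS, a small difference. On the same strand, 647 bp from it, another region scored 1988 and 1714 in WT-AS, and 69.5 and 216.5 in K512R-AS. That region scored 43.8 and 13.7 in K512R and 16.0 in WT-2, and had no peak in WT-1.

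The members in 1 WT list included peaks at the tied score of 3100 that the other WT list lacked. The region at chr20:1145673-1148379 (plus strand, 2707 bp) scored 3100 in WT-2 and in all 4 K512R-named lists and had no peak in WT-1. The region at chr20:2638575-2639039 (plus strand, 465 bp) scored 3100 in WT-1 and in all 4 K512R-named lists and had none in WT-2. The region at chr9:33262700-33262828 (minus strand, 129 bp) scored 3100 in WT-1, 3100 in both K512R lists, and 2581 and 2872 in K512R-AS, again with none in WT-2. A missing peak in 1 list thus did not mean a weak one in its replicate.

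Of the 24 members in neither WT list, only a pair was strong. The regions at chr12:133287668-133288215 (plus strand, 548 bp) and chr20:33114073-33114148 (plus strand, 76 bp) scored 3100 in each of the 4 K512R-named lists. Only 14 bp from the chr12 region, on the same strand, another region scored 3100 in both WT lists and 3160 and 2277 in WT-AS. With peaks joined within 100 bp, the chr12 region would merge with it and no longer meet the rule. The next by lowest percentile, at chrX:49365327-49365447 (plus strand, 121 bp), scored 546 and 82.7 in K512R and 95.3 and 69.9 in K512R-AS. The region at chr12:27944641-27945076 (plus strand, 436 bp) scored 71.7 and 152.1 in K512R and 44.5 and 39.1 in K512R-AS. The median percentile of the 24 was 18.8 and 25.6 in the K512R lists and 17.5 and 20.3 in the K512R-AS lists. Members in both WT lists had 42.3 and 46.5 in K512R and 21.4 and 22.2 in K512R-AS.

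**Figure D4:**
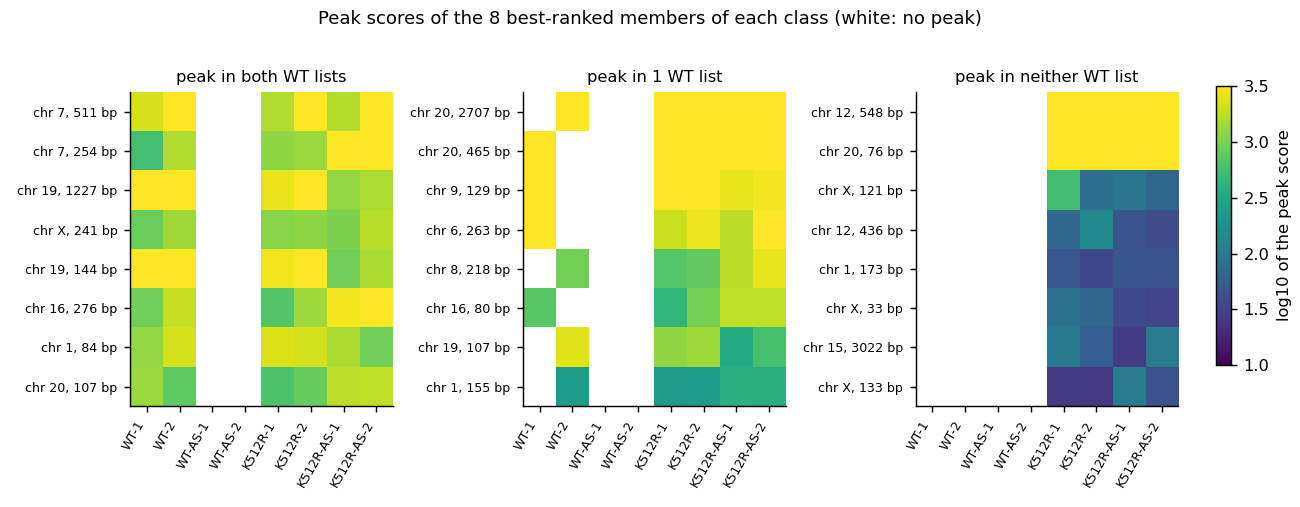
Colour gives log10 of the peak score in each list for the 8 members of each class with the best lowest percentile, labelled by chromosome and width, and white marks no peak. The WT-AS columns are white by the rule, and below the first 2 rows the highest score of the members in neither WT list is 546.

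In median width the members matched the regions they were drawn from, but wide peaks were more frequent among them. The joined member regions had a median width of 203 bp (33 to 4455 bp). It was 204 bp for all regions of the 4 K512R-named lists and for regions in both WT-AS lists. Of all regions of the 4 K512R-named lists, 7.22% and 7.45% were covered over more than 1000 bp in the K512R lists. Peaks over 1000 bp made up 9.84% and 10.7% of the members in the K512R lists, 7.83% and 8.50% in the K512R-AS lists, and 11.5% and 10.5% in the WT lists. For regions in both WT-AS lists these shares were 6.95% and 7.13%, 6.45% and 6.43%, and 6.99% and 6.97%. They were 9.14% and 9.64% in the K512R lists for regions in 1 WT-AS list, and 10.2% and 10.4% in the WT-AS lists for the reversed set. The share of wide peaks among the members was thus above that of regions in both WT-AS lists and near that of these other sets. The widest member, at chrX:148560295-148564749 (minus strand, 4455 bp), scored 1468 and 1545 in WT, 1394 and 2211 in K512R, and 31.5 and 136.2 in K512R-AS. The next, at chr11:94800041-94804387 (plus strand, 4347 bp), scored 1816 and 1758 in WT, 2481 and 2372 in K512R, and 802 and 1146 in K512R-AS. Their percentiles were 83.8 or more in the lists not named AS, and 18.6 and 46.3 for the widest and 76.3 and 79.5 for the next in the K512R-AS lists. Of 444 members with a single peak in each of the 4 lists, 312 (70.3%) had the same start and end in all of them, beside 80.9% of 11690 regions in both WT-AS lists.

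Few members lay near another member. Within 10000 bp on the same strand, 168 members (37.6%) had another region of the 4 K512R-named lists, member or not. The share was 59.1% for regions in both WT-AS lists. A gap of at most 10000 bp on the same strand joined 25 members (5.59%) into 12 runs, and 21 of these 25 were in both WT lists. The 447 members thus lay at 434 separate places. The only run of 3 lay on the plus strand of chromosome 19 between 607964 and 613488, where no region had a WT-AS peak. Its first member (607964 to 608182) scored 173.7 and 207.6 in WT, 208.7 and 313.4 in K512R, and 29.8 and 59.1 in K512R-AS. Its second (610259 to 610405) scored 280.1 and 287.4, 274.0 and 237.7, and 42.0 and 54.2 in the same order. The last (613248 to 613488) scored 145.4 and 246.3, 253.3 and 283.6, and 19.0 and 19.7. The percentiles of all 3 were 50.5 to 64.4 in the lists not named AS and 8.1 to 30.2 in the K512R-AS lists.

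The distance to WT-AS peaks differed by range. The median distance to the nearest WT-AS peak on the same strand was 11593 bp for members, and 4202 bp to the nearest other such peak for regions in both WT-AS lists. Within 10000 bp, 47.9% of the members and 70.7% of those regions had one. Within 1000 bp the shares were 8.50% and 9.16%, and within 500 bp the order was reversed, with 2.68% (12 members) and 0.952%. WT-AS peaks were thus farther from members at the median and over 10000 bp, and not at short range. Each member was then paired with every other region of the 4 K512R-named lists within 10000 bp on its strand, so that a region can enter several pairs. In 79.0% of the 300 pairs the other region was in both WT-AS lists and in 9.33% in neither. The shares were 82.0% and 4.22% around regions in 1 WT-AS list, and 93.1% and 1.80% around regions in both WT-AS lists. The neighbours of a member were thus mostly kept in WT-AS, in a share near that around regions in 1 WT-AS list. The share in neither WT-AS list was higher around members than around both other sets. A neighbour in neither list is itself a member. For members these pairs therefore come from the 12 runs given above and are no separate observation.

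**Figure D5:**
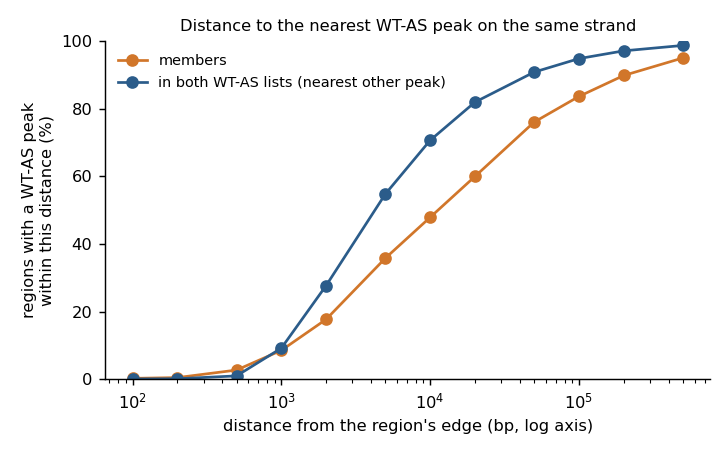
The lines give the share (%) of regions with a WT-AS peak on the same strand within a distance of the region's edge (log axis), for members and, counting peaks outside the region, for regions in both WT-AS lists. At 10000 bp members are at 47.9% and the others at 70.7%, while at 500 bp members are at 2.68% and the others at 0.952%.

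In 6 members (1.34%) a neighbouring region within 1000 bp on the same strand had exactly the opposite presence in all 8 lists. The share was 1.87% of the 2356 regions of the 4 K512R-named lists that at least 1 other list lacked. Beside the strong member at chr12:133287668-133288215, found in no WT-named list, the region at 133287393 to 133287653, 14 bp away, scored 3100 in both WT lists and 3160 and 2277 in WT-AS, and had no peak in the 4 K512R-named lists. The member at chr6:134274301-134274563 (plus strand) scored 3100 in WT-1, 1985 and 2707 in K512R, and 1737 and 3100 in K512R-AS. Its neighbour at 134273308 to 134273868, 432 bp away, scored 2381 in WT-2 and 1099 and 1080 in WT-AS, the 3 lists without the member. At chr15:100105622-100105874 (plus strand) the member scored 302.4 and 373.6 in WT, 236.2 and 347.7 in K512R, and 146.4 and 99.3 in K512R-AS, and the region at 100106133 to 100106309 scored 76.0 and 70.5 in WT-AS only. These places were chosen for opposite presence, so by that choice each list held 1 of the 2 neighbouring regions and never both.

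The numbers in the peak names bear on what absence from WT-AS means. In every list the numbers follow genome order over both strands and none occurs more than once, and only about every second number is listed. For 444 members that lay between 2 listed peaks of both WT-AS lists and under no listed peak of the other strand, the numbers missing between those peaks were counted. No number was missing in WT-AS-1 for 52, in WT-AS-2 for 43 and in both for 22 (4.95%). If every called peak received a number, these 22 had no unlisted peak in either list. For 371 at least 1 number was missing in both lists, so a peak that was called but not listed is possible there. Of the 22, 15 (68.2%) were in both WT lists, 5 in 1 and 2 in neither, and their median percentile was 61.9 and 74.3 in K512R and 51.1 and 43.7 in K512R-AS, above that of the members as a whole. The strong regions at chr7:25164615, chr16:53737467, chr20:48561919, chr6:134274301 and chr12:133287668 are among them. Those at chr7:27195786, chr19:11039690, chr19:4365479, chr20:1145673, chr20:2638575, chr9:33262700 and chr20:33114073 are not.

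A second count used the nearest regions found in all 8 lists on either side. No number was missing between them in any of the 4 K512R-named lists for 27 members. Of these, 8 (29.6%) had a number missing in both WT-AS lists, 10 in 1 of them and 9 in neither. For regions in both WT-AS lists, a number was missing in both WT-AS lists for 27 of 2022 (1.34%). Those regions were chosen for listed WT-AS peaks and the members for lacking them, so the contrast of these shares is no test. In those 8 places a number was missing in both WT-AS lists and in no K512R-named list. Whether it stood for a called peak, and whether such a peak lay on the member, was not tested.

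Members came from every chromosome that had lists. They were 1.76% of the regions of the 4 K512R-named lists on chromosome 10 (10 of 567), the lowest share, and 4.89% on chromosome 18 (13 of 266), the highest, around the 3.38% overall. Of the members, 51.0% lay on the plus strand, beside 50.8% of all those regions.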

How the data were processed

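RIP-seq peak lists of 8 samples were used. For each, the authors deposited positions and strands of peaks with a score, whose unit is not stated. Per the submitters' processing notes, cutadapt 1.9.3, HISAT2 2.0.4 and hg19 were named, without order or settings. Peak names begin with MACS, per the deposited lists. The caller's version, control library, threshold and way of assigning strand are not stated in the labels or lists.

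Start positions were raised by 1, as for BED files. Peaks on the same strand that overlapped by 1 bp were joined, and presence was read per list. Samples were grouped by title, and the rule uses list names. Within each class of WT presence, the 8 members with the best lowest percentile were chosen for naming (ties by width, then position), with the 5 widest and the 3 longest runs. The text gives part of these. Regions named for an opposite neighbour were chosen after their values were seen. The members and all settings were chosen with earlier results of these data known. With a gene table of a different build (GRCh38.p14), the planned gene lists and U content were not run. The rule's code was tested on simulated data. The scripts ran in Python 3.11.15 (pandas 2.3.3 with numpy 2.4.6, scipy 1.17.1 for intervals) and figures were drawn with matplotlib 3.10.9.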

Additional observations from a re-analysis of the deposited data

How the results depend on the processing

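The number of members ranged from 552 to 1003 when 1 of the 6 lists of the rule was left out, and was 1428 with a peak in at least 3 of the 4 K512R-named lists. Both changes loosen the rule, so the number can only rise. Limiting it to members whose WT-AS lists left no missing peak number, an alternative chosen after seeing the data, left 22. Equal list lengths, both score minimums, joining within 100 bp (450) or 1000 bp (420), ignoring strand (447) and asking for a part of the region covered in all 4 lists and in neither WT-AS list (616) kept it within 1.5 times of 447. The share in both WT lists, 76.7%, was 82.4% at scores of 100 or more and 68.2% for the 22 members, and 85.5% to 85.9% of the members had a peak in the WT list that remained when the other was left out. The share of members in runs, 5.59%, was 15.4% with gaps of up to 50000 bp. The mean of the median covered widths over the 4 lists was 199 bp, and the median width of the joined regions 203 bp. No paired analysis was possible because the counts come from no test. Depth is unknown, and a peak under the authors' threshold cannot be told from no reads.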
